A study of Mus musculus with 12 samples.

Results

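The genes described here encode the receptors through which liver cells receive 3 families of growth signal. They are Egfr, Erbb2 and Erbb3 of the epidermal growth factor (ErbB) family, Met, the receptor for hepatocyte growth factor, Fgfr1, Fgfr2, Fgfr3 and Fgfr4 of the fibroblast growth factor (FGF) family, and Klb, which encodes β-Klotho. The 9 genes, receptors that a receptor phosphatase may oppose and the co-receptor gene Klb, were chosen by name out of 52636 genes in the deposited table. Fgfr2 was included with its higher values in the knockout already known. All 9 passed the filter on low values, which required 10 or more reads per 20 M in 3 or more libraries and kept 16563 genes. Because the knockout contrast entered the choice, knockout and wild-type values of these genes are given as a description with no test. The rule of choice did not name differences between the fat fractions, and these were tested. Earlier results of these data were known when the genes and gene lists were chosen.

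RNA sequencing of polyA RNA was performed on hepatocytes from steatotic livers of 6 mice, 3 wild type (WT) and 3 knockout (KO) for Ptprk, which encodes the receptor-type phosphatase kappa. Percoll gradient and differential centrifugation split the cells of each mouse by lipid content into low-fat and high-fat, so that 12 libraries formed 4 groups of 3: low-fat and high-fat WT, and both fractions of KO. Mice are numbered 1 to 3 within a genotype by the replicate number in the labels, so WT mouse 1 and KO mouse 1 are different animals. Every group came from a fatty liver, and no lean liver is among the libraries. The knockout allele, its promoter or Cre driver if any, and the strain, sex, age and diet of the mice are not given in the sources used here. Values are gene read counts that the authors scaled to a total of 20 M (M for mega), and are called reads per 20 M.

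Receptor tyrosine kinases bind a ligand outside the cell, form pairs, and phosphorylate tyrosines on their own tails, where adaptor proteins dock and start the RAS-MAPK and PI3K-AKT cascades. Protein tyrosine phosphatases remove these phosphates. In the liver, EGFR and MET are known for driving hepatocyte proliferation during regeneration, and FGFR4 with its co-receptor β-Klotho receives the intestinal hormone FGF15, which represses bile acid synthesis. ERBB3 has little kinase activity of its own and signals in pairs with EGFR or ERBB2, while ERBB2 binds no known ligand by itself. A transcript level is not a level of receptor protein or of its phosphorylation, neither of which was measured.

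Estimated depth lay between 15.1 M and 25 M reads per library, at which 3 reads correspond to between 2.40 and 3.98 reads per 20 M, a floor that covers counting error only. Ptprk was at 2174 to 2883 reads per 20 M in the 6 WT libraries and at 1117 to 1364 in the 6 KO libraries, so transcripts of the targeted gene were lower in KO but not at 0 (-1.13 on the log2 scale, adjusted p = 0.0013, in low-fat and -0.99, adjusted p = 0.00501, in high-fat libraries). Hepatocyte markers such as Alb and Apob summed to at least 726686 reads per 20 M in every library. Markers of stellate, endothelial and Kupffer cells were higher in the high-fat fraction, while biliary markers summed to 0.791 to 0.947 of the same mouse's low-fat value. Summed over the list, stellate cell markers were at 229 to 969 in the 6 low-fat and 3024 to 5561 in the 6 high-fat libraries, and endothelial markers at 1097 to 2568 and 4296 to 14158 in the same order. Both high-fat replicate 1 libraries, WT and KO, stood apart with Kupffer cell markers at 9738 and 8435 reads per 20 M, against 1732 to 1954 in the other 4 high-fat libraries. In bulk RNA, fewer cells of a type and less RNA per cell cannot be told apart.

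Levels of different genes were compared per kilobase of annotated exon. Egfr was the most abundant of the 9 at 1510 ± 559 reads per 20 M per kb (SD over all 12 libraries), followed by Erbb3 at 847 ± 165 and Met at 504 ± 48.2. Fgfr4 was the most abundant of the FGF receptors, at 470 ± 58.2, and its co-receptor Klb was at 285 ± 73.2. Fgfr3 followed at 153 ± 44.1 and Fgfr2 at 102 ± 36.1. At the low end, Fgfr1 was at 16.2 ± 4.91 and Erbb2 at 3.15 ± 2.25 reads per 20 M per kb. The ranges over the 12 libraries separated for only 2 neighbouring pairs in this order, Fgfr4 above Klb and Fgfr2 above Fgfr1. Within single libraries the order held in 12 of 12 for Erbb3 over Met, Fgfr4 over Klb, Fgfr2 over Fgfr1 and Fgfr1 over Erbb2. It held in 11 for Egfr over Erbb3 and for Klb over Fgfr3, in 10 for Fgfr3 over Fgfr2 and in 9 for Met over Fgfr4. Dividing by the longest transcript in place of all exons gave the same order, with Fgfr2 at 237 reads per 20 M per kb, so its level depends on the gene model.

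**Figure D1:**
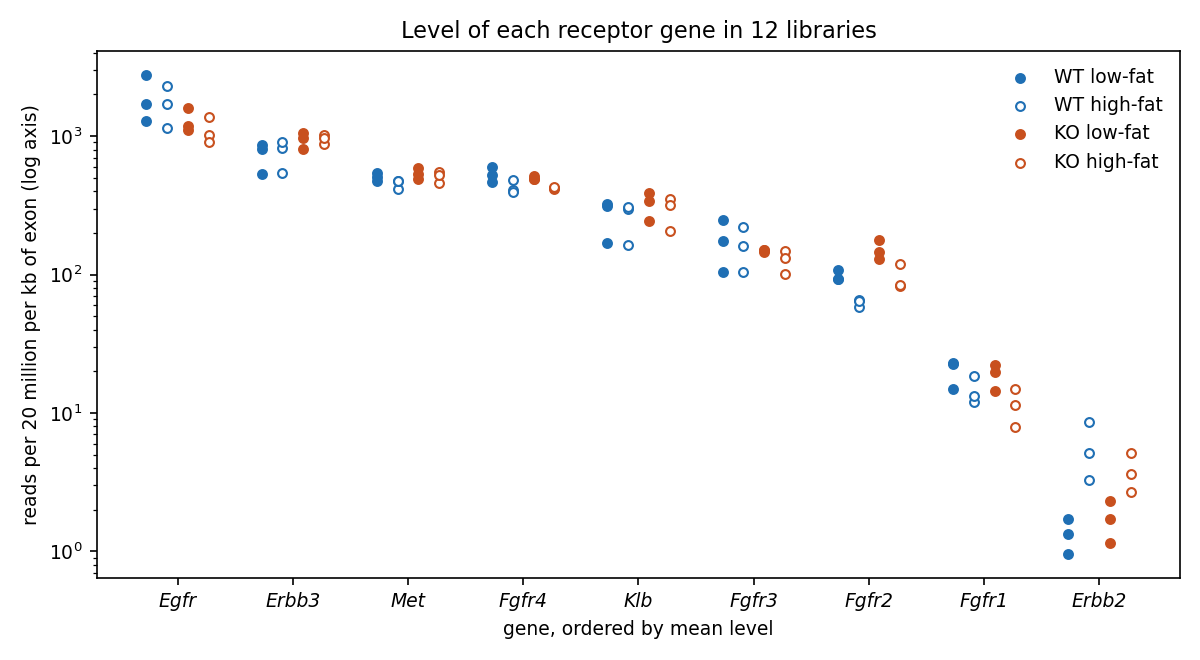
Level of each of the 9 receptor genes in reads per 20 M per kb of exon (log axis), with 1 point per library, blue for WT and orange for KO, filled for low-fat and open for high-fat. Egfr, Erbb3 and Met stand at the top and Fgfr1 and Erbb2 at the bottom, and only Fgfr4 over Klb and Fgfr2 over Fgfr1 are neighbours whose points do not overlap.

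The fractions were compared first over both genotypes, as the mean of the WT and the KO difference, high-fat minus low-fat. Fgfr2 and Fgfr4 fell and Erbb2 rose in the high-fat fraction, each in the same direction in 6 of 6 mice. These are 3 of the 9 genes, 1 higher and 2 lower, against 5.77% of all genes tested that passed an adjusted p of 0.05 (limma, Benjamini-Hochberg), 5.05% higher and 0.725% lower. The 1 higher gene, Erbb2, met the filter on low values only through its high-fat libraries. The median log2 difference of the 9 genes was -0.23, with 1 above 0 and 8 below, beside a median of -0.02 over all genes tested. Direction was shared by all 6 mice in 5 of the 9 genes, 4 of them lower, while 21.5% of all genes tested had such a shared direction with 11.6% lower and 9.96% higher in all 6.

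Sequence around the annotated transcription start is shown for the 3 genes that passed this test, since their levels differed between fractions in opposite directions. Each window runs from 250 bases before to 50 bases after the start in RefSeq's annotation of GRCm38.p6, which held 7 of the 9 genes (not Erbb3 or Fgfr1). Capitals mark every match, on either strand, to GGGCGG (the GC box), to the CCAAT box, to TATAAA (the TATA box), to CACGTG (an E-box) or to TGACTCA (an AP-1 site). Fgfr2 lies at chr7:130266759-130267058 on the minus strand, Fgfr4 at chr13:55152568-55152867 and Erbb2 at chr11:98412234-98412533, both on the plus strand.
Fgfr2: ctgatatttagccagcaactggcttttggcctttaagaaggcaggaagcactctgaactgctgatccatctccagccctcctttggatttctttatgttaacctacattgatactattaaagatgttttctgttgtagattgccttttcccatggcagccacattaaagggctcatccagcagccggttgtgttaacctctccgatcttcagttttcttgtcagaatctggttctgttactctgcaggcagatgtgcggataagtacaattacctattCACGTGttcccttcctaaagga
Fgfr4: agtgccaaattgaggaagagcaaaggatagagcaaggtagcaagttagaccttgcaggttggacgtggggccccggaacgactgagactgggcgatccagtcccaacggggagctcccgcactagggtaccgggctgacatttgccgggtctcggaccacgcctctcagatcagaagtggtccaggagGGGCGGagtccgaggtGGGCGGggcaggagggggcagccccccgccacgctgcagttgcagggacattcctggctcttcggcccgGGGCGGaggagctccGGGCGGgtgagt
Erbb2: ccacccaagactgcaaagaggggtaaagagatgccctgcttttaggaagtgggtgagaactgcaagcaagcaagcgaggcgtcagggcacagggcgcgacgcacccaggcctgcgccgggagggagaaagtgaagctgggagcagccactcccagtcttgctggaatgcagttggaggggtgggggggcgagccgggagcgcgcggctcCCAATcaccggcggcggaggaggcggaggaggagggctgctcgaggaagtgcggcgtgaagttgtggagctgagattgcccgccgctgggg
The Fgfr2 window held 1 E-box, which 7.15% of 32851 RefSeq mouse promoter windows of this length also held, and it had 43.7% G and C with 4 CpG. Fgfr4's window held 4 GC boxes (35.7% of windows held at least 1) and had 65.3% G and C with 20 CpG. In Erbb2 there was 1 CCAAT box (37.4% of windows), with 66.0% G and C and 21 CpG. The median window had 52.7% G and C and 7 CpG, so Fgfr2 lay below and the other two above it. None of the 5 motifs' letters contain another. TATAAA and TGACTCA stood in 13.6% and 5.2% of all windows and in none of these 3. A match to these letters is a description of the window and says nothing about which factor binds there.

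Fgfr2 (ENSMUSG00000030849) encodes an FGF receptor whose epithelial splice form responds to FGF7 and FGF10. In WT mice 1, 2 and 3 it was at 1120, 957 and 959 reads per 20 M in the low-fat fraction and at 673, 607 and 668 in the high-fat fraction. In KO mice 1, 2 and 3 it was at 1508, 1841 and 1340 in the low-fat and 848, 1224 and 873 in the high-fat fraction. Every high-fat library lay below every low-fat library of the same genotype, and the high-fat value was between 56.2% and 69.7% of the same mouse's low-fat value. Averaged over both genotypes, Fgfr2 fell by 0.71 on the log2 scale (SE 0.107, 95% interval -0.946 to -0.477, adjusted p = 0.00383). In WT alone the difference was -0.69 (adjusted p = 0.103) and in KO alone -0.73 (adjusted p = 0.0528), and the latter passed with the mouse as a block (adjusted p = 0.0307). The interaction, which tests whether the fraction difference itself differs between genotypes, was -0.04 with an adjusted p of 1.

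Fgfr4 (ENSMUSG00000005320) encodes the FGF receptor most typical of hepatocytes. WT low-fat libraries had 1844, 2112 and 1655 reads per 20 M, and the high-fat libraries of the same mice 1457, 1710 and 1407. KO low-fat libraries had 1746, 1822 and 1732, and KO high-fat libraries 1466, 1506 and 1511. As deposited, the KO groups did not overlap, whereas the highest WT high-fat value lay above the lowest WT low-fat value. After scaling between libraries the WT groups did not overlap either. Each mouse had less Fgfr4 in its high-fat fraction, at 79.0% to 87.2% of the low-fat value. Fgfr4 fell by 0.32 on the log2 scale over both genotypes (SE 0.068, 95% interval -0.471 to -0.172, adjusted p = 0.0181). Within one genotype it did not pass (adjusted p = 0.175 in WT and 0.231 in KO).

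Erbb2 (ENSMUSG00000062312) encodes the ErbB receptor without a ligand of its own, and its reads were few in all libraries. It was at 7, 5 and 9 reads per 20 M in WT low-fat and 45, 27 and 17 in WT high-fat libraries of mice 1, 2 and 3. In KO the low-fat libraries had 6, 12 and 9 and the high-fat libraries 27, 19 and 14. High-fat libraries lay above low-fat libraries in both genotypes without overlap, with the highest value of each genotype in its mouse 1. Erbb2 met the filter of 10 or more reads per 20 M in 3 or more libraries only through its high-fat libraries. Its test is thus of a gene kept through the fraction where it was high. Erbb2 rose by 1.32 on the log2 scale over both genotypes (SE 0.27, 95% interval 0.727 to 1.912, adjusted p = 0.0154), a value that understates the change of so low a gene because 2 was added to each value. The difference was 1.69 in WT (adjusted p = 0.105) and 0.95 in KO (adjusted p = 0.432), and the interaction had an adjusted p of 1.

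These 3 calls were repeated without the 4 libraries of WT mouse 1 and KO mouse 1, whose high-fat fractions had the most Kupffer and endothelial marker reads. Without them the differences were -0.61 for Fgfr2 (adjusted p = 0.0592), -0.27 for Fgfr4 (adjusted p = 0.286) and 0.98 for Erbb2 (adjusted p = 0.237). With the mouse as a block as well, Fgfr2 and Fgfr4 passed (adjusted p = 0.000542 and 0.0146) and Erbb2 did not (adjusted p = 0.107). Leaving out any single library kept all 3 calls.

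**Figure D2:**
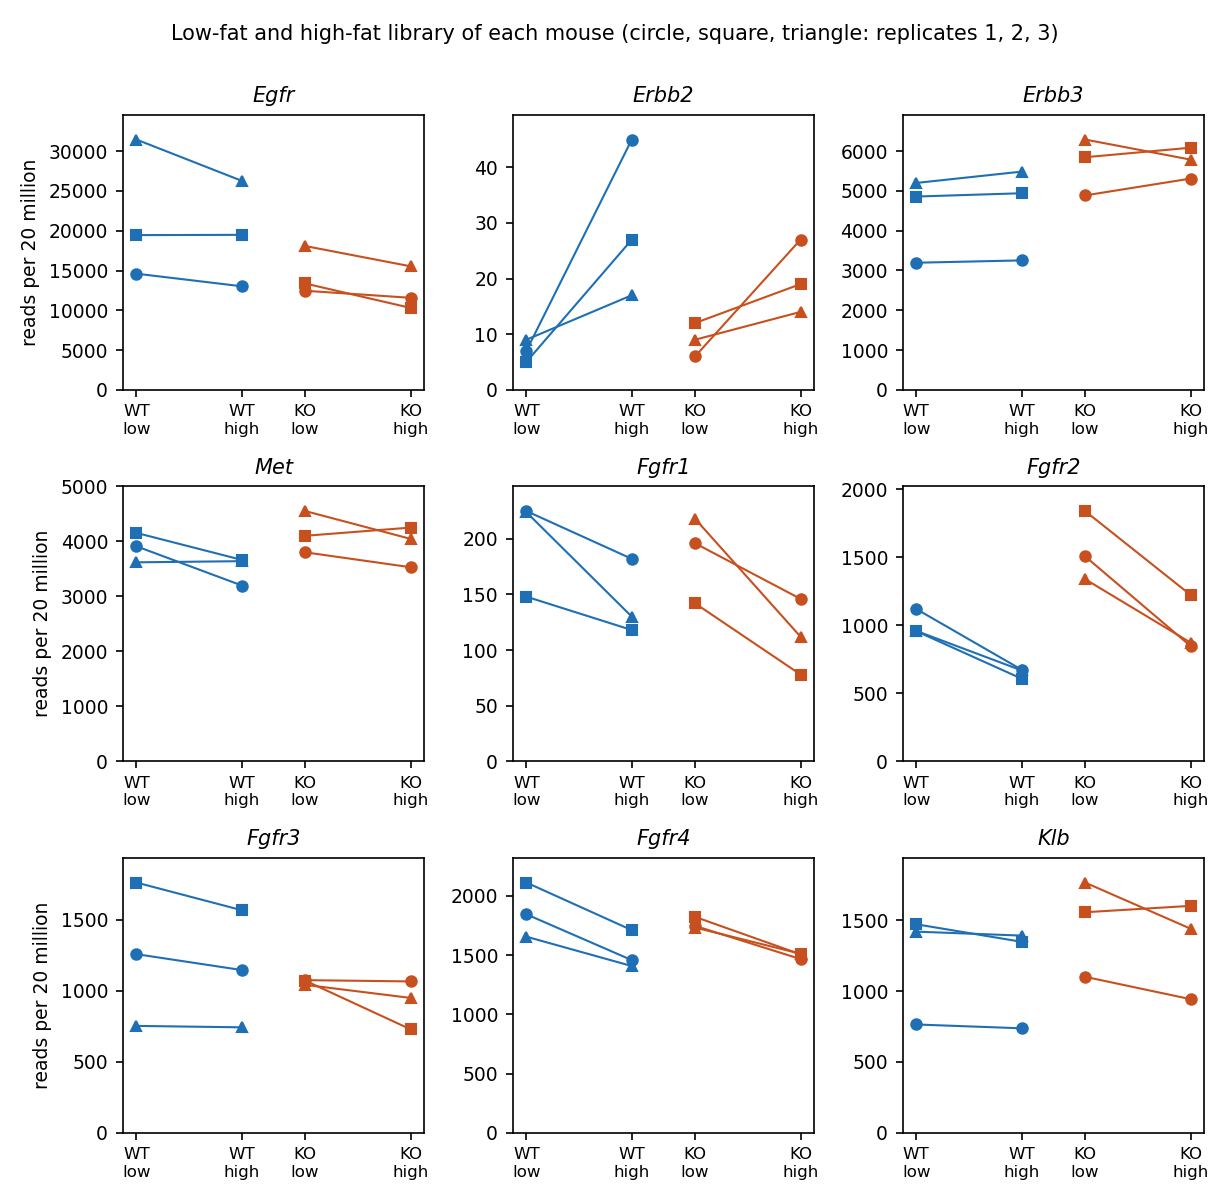
Reads per 20 M of each of the 9 receptor genes in the low-fat and the high-fat fraction, on a linear axis from 0, with a line joining the 2 libraries of each mouse (blue WT, orange KO). The lines of Fgfr2, Fgfr4, Fgfr1 and Fgfr3 fall in all 6 mice and those of Erbb2 rise in all 6, while those of Erbb3 are nearly flat.

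Fgfr1, an FGF receptor better known from mesenchymal cells, was at 225, 148 and 224 reads per 20 M in WT low-fat and 182, 118 and 130 in WT high-fat libraries. KO low-fat libraries had 196, 142 and 218 and KO high-fat libraries 146, 78 and 112. Each mouse had less Fgfr1 in the high-fat fraction, at 51.4% to 80.9% of its low-fat value, yet as deposited the groups overlapped in both genotypes, narrowly in KO, where they did not overlap after scaling between libraries. The difference over both genotypes was -0.66 on the log2 scale (SE 0.192, adjusted p = 0.0766). With the mouse as a block Fgfr1 fell by the same amount with an adjusted p of 0.00817, and in KO alone by 0.79 with 0.0429. With that block 4 of the 9 genes passed over both genotypes, where 11% of all genes tested did (6.76% higher and 4.23% lower, against 1 and 3 of the 9), and 2 of the 9 in KO, where 1.7% did.

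Fgfr3, which in other tissues restrains growth, was at 1257, 1761 and 752 reads per 20 M in WT low-fat and 1145, 1566 and 742 in WT high-fat libraries. In KO it was at 1074, 1071 and 1041 in low-fat and 1065, 728 and 949 in high-fat libraries. High-fat values were the lower ones in all 6 mice but mostly by little, from 68.0% to 99.2% of the low-fat value. The difference was -0.23 (SE 0.203, 95% interval -0.67 to 0.22, adjusted p = 0.616, or 0.0614 with the block). Klb, needed by FGFR4 and FGFR1 to respond to the hormones FGF15 and FGF21, was at 765, 1473 and 1421 in WT low-fat and 738, 1349 and 1393 in WT high-fat libraries. KO mice had 1102, 1558 and 1768 reads per 20 M of Klb in the low-fat and 944, 1603 and 1442 in the high-fat fraction. Mouse 1 of each genotype was the lowest in both fractions, and the fractions overlapped, with a difference of -0.17 (95% interval -0.682 to 0.345, adjusted p = 0.768, or 0.108 with the block).

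Egfr was at 14600, 19451 and 31474 reads per 20 M in WT low-fat and 13016, 19486 and 26276 in WT high-fat libraries. KO low-fat libraries had 12453, 13370 and 18081, and KO high-fat libraries 11567, 10296 and 15530. Mouse 3 was highest in every group, and the high-fat value was lower in 5 of 6 mice. The difference between fractions was -0.24 on the log2 scale (95% interval -0.751 to 0.267, adjusted p = 0.639, or 0.0671 with the block). Erbb3 values in WT were 3195, 4860 and 5202 reads per 20 M in low-fat and 3254, 4943 and 5487 in high-fat libraries. In KO they were 4888, 5848 and 6294 in low-fat and 5311, 6088 and 5789 in high-fat libraries. The high-fat value of a mouse was 92.0% to 109% of its low-fat value, and the difference of -0.02 (95% interval -0.37 to 0.322, adjusted p = 0.96) became 0.03 with the deposited scaling alone.

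Met was at 3906, 4149 and 3614 reads per 20 M in WT low-fat and 3193, 3658 and 3635 in WT high-fat libraries. KO mice had 3796, 4096 and 4546 in the low-fat and 3525, 4245 and 4040 in the high-fat fraction. Its fractions overlapped in both genotypes as deposited, and 4 of 6 mice had less Met in the high-fat fraction (5 of 6 after scaling between libraries). The difference was -0.17 (95% interval -0.345 to 0.006, adjusted p = 0.293, or 0.108 with the block). Met and Fgfr4 varied least between mice, with the highest low-fat value 1.26 and 1.28 times the lowest over the 6 mice. Egfr, Fgfr3 and Klb varied by 2.53, 2.34 and 2.31 times, a spread larger than any of their differences between fractions. Each mouse gave both fractions, so this spread does not measure the error of those paired differences. Without and with the mouse as a block their SEs were 0.232 and 0.071 (Egfr), 0.203 and 0.064 (Fgfr3) and 0.234 and 0.059 (Klb).

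Within one genotype, none of the 9 genes passed without the block in WT, where 0% of all genes tested did (1847 had an unadjusted p under 0.05, and with the block also 0, with 3209 under it), nor in KO, where 0.839% did. After scaling between libraries, the low-fat and high-fat groups did not overlap for 4 of the 9 in WT and 5 of the 9 in KO, against 17.4% and 13.4% of all genes tested. The interaction passed for 0 of 9 and for 0% of all genes, with 24 of 16563 at an unadjusted p under 0.05, or 66 with the block.

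KO and WT values of the 9 genes are given next as a description, since this contrast entered the choice of genes. Fgfr2 was higher in KO, by 0.62 on the log2 scale (SE 0.151) in the low-fat and 0.58 (SE 0.151) in the high-fat fraction. The lowest KO value exceeded the highest WT value in both fractions, at 1340 against 1120 and 848 against 673 reads per 20 M. It was the only one of the 9 whose KO and WT libraries did not overlap, in either fraction, where 5.43% of all genes tested did not overlap in low-fat and 5.19% in high-fat libraries. These shares are printed for scale only and support nothing, since Fgfr2 was included for this difference. Both fractions come from the same mice and are not independent evidence of this difference.

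For Egfr the KO mean was the lower one, by 0.52 (SE 0.328) in low-fat and 0.61 (SE 0.328) in high-fat libraries, with WT mouse 1 inside the KO range in both fractions. Erbb3 had the higher mean in KO, by 0.39 (SE 0.223) and 0.37 (SE 0.223), where WT mouse 1 lay below all other mice and WT mice 2 and 3 lay near or inside the KO range. Klb differed by 0.31 and 0.22 (SE 0.331 for both), Met by 0.10 and 0.17 (SE 0.113), and Fgfr4 by -0.07 and -0.02 (SE 0.096). Fgfr1 differed by -0.09 and -0.36 (SE 0.272), Fgfr3 by -0.15 and -0.28 (SE 0.287), and Erbb2 by 0.28 and -0.47 (SE 0.382). In the fit over all genes 0.00604% passed in each fraction, which is Ptprk alone, so the count among the 9 is 0, from which nothing is read. In low-fat libraries 285 genes and in high-fat libraries 334 had an unadjusted p under 0.05.

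Marker levels also differed in direction between genotypes in these libraries, with 0 markers passing in either fraction. Endothelial markers were lower in KO for 9 of 9 tested in both fractions, with median log2 differences of -0.66 in low-fat and -0.44 in high-fat libraries. Their sum in low-fat libraries was 1097 to 2138 reads per 20 M in KO and 2425 to 2568 in WT, without overlap, and in high-fat libraries 4296 to 9075 and 5434 to 14158, with overlap. Pericentral markers were lower in KO for 9 of 10 in each fraction (medians -0.61 and -0.52), and Kupffer markers for 9 of 9 in low-fat (median -0.80) and 7 of 9 in high-fat libraries (median -0.12). Hepatocyte markers had medians of 0.06 and 0.02. Periportal markers were higher in KO, the direction of Fgfr2, for 9 of 10 in low-fat and 8 of 10 in high-fat libraries (medians 0.05 and 0.09). Stellate markers were higher in KO for only 1 of 10 in low-fat (median -0.50) and for 5 of 10 in high-fat libraries (median 0.01). The part of these levels in the KO and WT values of Fgfr2 and the other receptors was not tested.

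**Figure D3:**
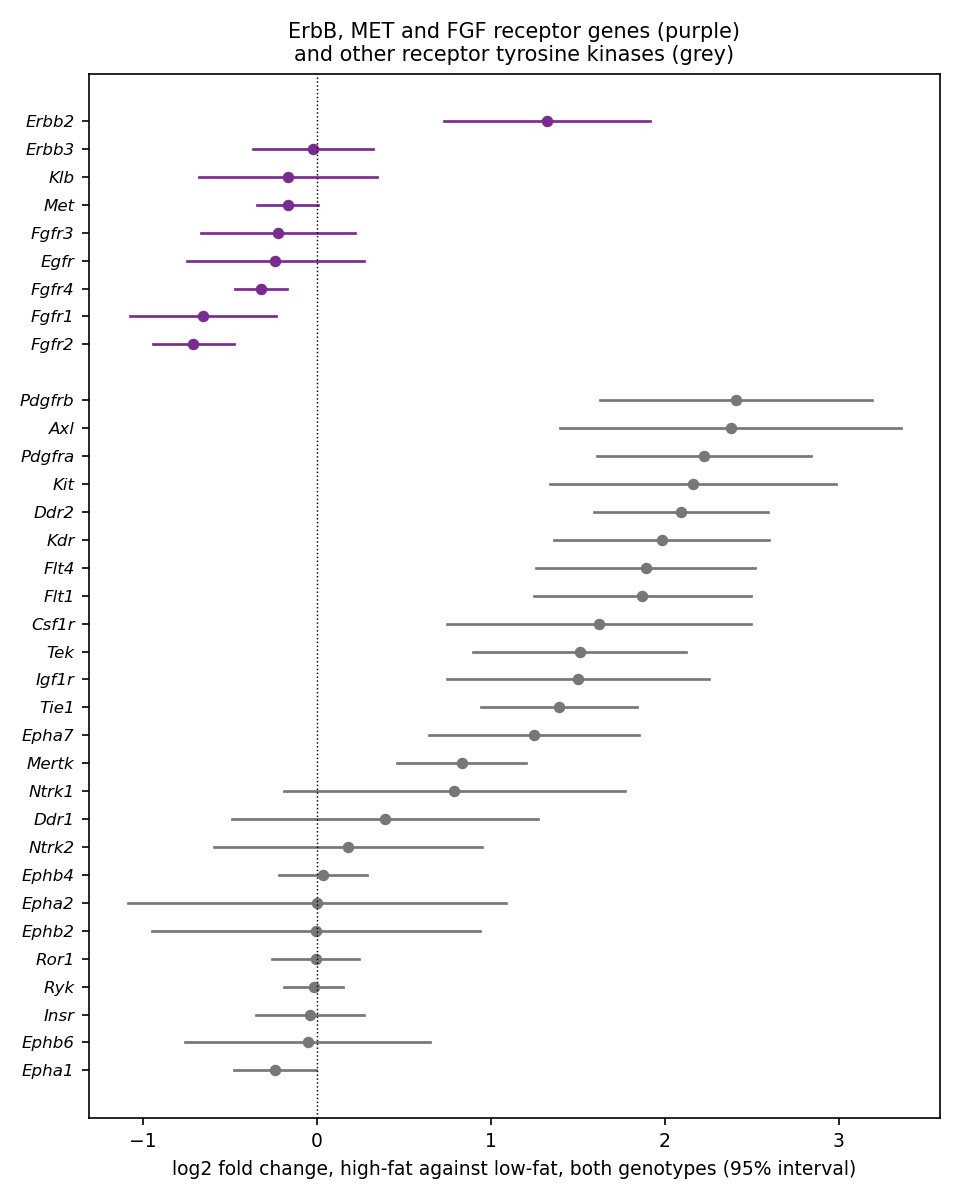
Log2 difference between high-fat and low-fat fractions over both genotypes, with 95% intervals from the fit without the mouse as a block. Shown are the 9 genes, of which Klb encodes a co-receptor, and receptor tyrosine kinases outside the ErbB, MET and FGF receptor families. Of the 9, Erbb2 lies to the right of 0 and the other 8 to the left, with the intervals of Fgfr2, Fgfr4 and Fgfr1 clear of 0, while 14 of the 25 other kinases tested passed and were higher.

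Receptor tyrosine kinases outside these families were set beside the 9 genes. Of 42 listed, 25 were tested, and 14 rose and 0 fell in the high-fat fraction, with a median log2 difference of 1.25. They include Kdr, Flt1, Flt4, Tek and Tie1 of endothelial cells (Kdr 1.98, SE 0.281, adjusted p = 0.00323), Pdgfra and Pdgfrb of stellate and other mesenchymal cells (Pdgfrb 2.41, SE 0.356, adjusted p = 0.00362), and Csf1r of macrophages (1.62, SE 0.399, adjusted p = 0.0361). Kit, Axl, Mertk, Ddr2, Igf1r and Epha7 were the others. Insr, the insulin receptor and the most abundant on this list at 5714 reads per 20 M, differed by -0.04 (adjusted p = 0.914), and Epha2 by -0.00 (adjusted p = 0.999). Epha1 fell with the block alone (-0.24, adjusted p = 0.0142). Closer relatives of the 9 genes were 3, of which Erbb4 (0.17, adjusted p = 0.816) and Fgfrl1 (-0.15, adjusted p = 0.57) did not pass and Mst1r stayed at 9 reads per 20 M or less.

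**Figure D4:**
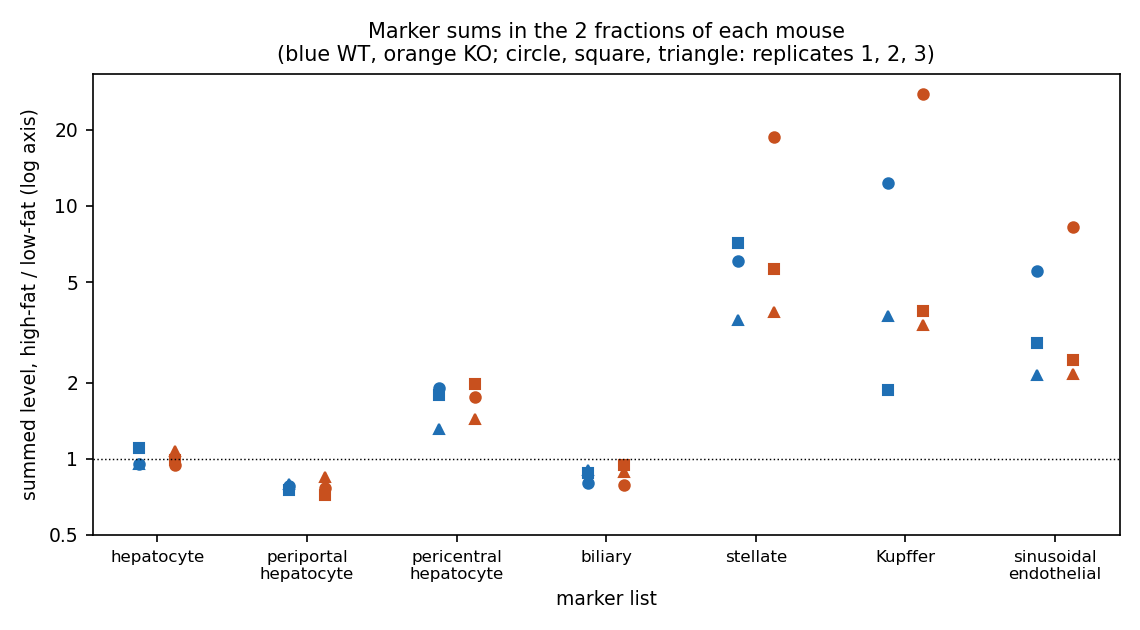
Ratio of the summed marker level in the high-fat to that in the low-fat library of each mouse (log axis), for 7 marker lists, with 1 point per mouse (blue WT, orange KO). Stellate, Kupffer and endothelial ratios lie above 1 in all 6 mice, up to 27.8 for Kupffer markers in KO mouse 1, and periportal ratios lie between 0.719 and 0.85.

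Marker lists moved with the fractions in the same libraries as the receptor genes. In the high-fat fraction all 10 of 10 stellate, 7 of 9 Kupffer and 9 of 9 endothelial markers rose, the direction of Erbb2. Summed Kupffer markers were highest in the high-fat libraries of mouse 1 in WT and in KO, where Erbb2 was highest too. Biliary markers, of cells that also express ErbB receptors, summed to 3007 to 3934 reads per 20 M in low-fat and 2404 to 3712 in high-fat libraries, with 0 of 5 tested passing (with the block Sox9 and Tm4sf4 fell, adjusted p = 0.00404 and 0.037) and Krt19, Krt7, Epcam and Cftr at means of 2.83, 1.67, 3.67 and 0.50 over all libraries. Among hepatocyte zone markers, 4 of 10 pericentral ones rose and 5 of 10 periportal ones fell, the latter in the direction of Fgfr2 and Fgfr4. The periportal sum in the high-fat fraction was 0.719 to 0.85 of that in the low-fat fraction of the same mouse, and the pericentral sum 1.31 to 1.97 times. The part of these cell types and zones in the receptor results was not tested.

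Ligands of the 9 receptors were mostly low in these libraries. Of 11 ErbB ligands 6 were tested and 0 passed. Tgfa, an EGFR ligand at 611.3 reads per 20 M, differed by 0.28 (adjusted p = 0.0895) and Nrg4, a hepatocyte-directed neuregulin, by -0.20 (adjusted p = 0.0821), and with the block Tgfa rose (0.0328) and Nrg4 fell (0.0446). Of 18 FGF genes 5 were tested and 0 passed, with or without the block. Fgf1 was the highest at 1928 reads per 20 M and Fgf2 followed at 94.17, while Fgf15, made in the intestine, was listed at 0 in all 12 libraries.

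On the MET side, 10 of 12 genes for the ligand, its activators and inhibitors were tested, of which 2 rose and 1 fell. Hgf, the MET ligand made by stellate and endothelial cells, was at 33 to 45 reads per 20 M in WT low-fat and 150 to 286 in WT high-fat libraries, and at 11 to 50 and 142 to 224 in KO. It rose by 2.38 on the log2 scale (SE 0.311, adjusted p = 0.00293) in 6 of 6 mice, with no overlap between fractions. Plau, a protease able to activate HGF, rose by 2.27 (SE 0.364, adjusted p = 0.00509), and Hgfac, the HGF activator of hepatocytes, fell by 0.29 (SE 0.074, adjusted p = 0.0448). Plau was at only 0 to 11 reads per 20 M in low-fat and 10 to 53 in high-fat libraries. Like Erbb2, it met the filter on low values only through its high-fat libraries. Its KO low-fat values of 0 to 2 lay below the floor of 3 reads. The abundant F2 and F12 differed by -0.13 (adjusted p = 0.555) and -0.16 (adjusted p = 0.307). The median of the list was -0.11, beside -0.02 over all genes tested.

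Co-receptors and heparan sulfate carriers, which hold FGFs and HGF at the cell surface, had 11 of 17 genes tested. Sdc3 (2.29, adjusted p = 0.0169) and Gpc6 (1.82, adjusted p = 0.0105) rose, and Sdc1, a syndecan of hepatocytes, fell by 0.46 (SE 0.092, adjusted p = 0.014). Gpc6 was at 1 to 8 reads per 20 M in low-fat and 12 to 29 in high-fat libraries, so it met the filter only through the latter. Sdc4 was the most abundant, at 13700 reads per 20 M, and differed by -0.11 (adjusted p = 0.732), and with the block Sdc2 and Gpc1 fell too (adjusted p = 0.0375 and 0.0164).

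Downstream of the receptors, 35 of 36 adaptors and proximal effectors were tested and only Gab2 passed, rising by 1.40 (adjusted p = 0.0249) from 9 to 23 reads per 20 M in low-fat to 30 to 100 in high-fat libraries. Stat3 fell with the block alone (-0.28, adjusted p = 0.00927), and the abundant Map2k2 differed by -0.17 (adjusted p = 0.248). Among feedback inhibitors 24 of 25 were tested, and Spry1 (1.195, adjusted p = 0.00595) and Spry2 (1.46, adjusted p = 0.0158) rose. Spry1 was at 18 to 26 reads per 20 M in low-fat and 40 to 77 in high-fat libraries. Spry2 was at 1 to 7 and 8 to 31, with low-fat values near or below the floor of 3 reads. It reached the filter's 10 reads only in high-fat libraries. The median of the list was 0.04, with 13 of 24 above 0. Errfi1, an inhibitor of EGFR and the most abundant of the list at 30540 reads per 20 M, differed by -0.19 (adjusted p = 0.44) and Dusp6, an ERK phosphatase, by 0.21 (adjusted p = 0.736). With the block Cblb and Grb10 rose and Lrig1 and Socs5 fell as well.

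Phosphatases that act on receptor kinases had 17 of 18 genes tested, of which Ptprb, Ptprm and Ptprs rose (1.70, 1.995 and 0.73, adjusted p = 0.00327, 0.00812 and 0.0278) and 0 fell. The abundant Ptprf and Ptprj differed by -0.23 (adjusted p = 0.177) and -0.12 (adjusted p = 0.368), and with the block Ptpn9 rose and Ptpn3 and Ptprk fell. Immediate early genes that growth factors induce had 13 of 18 tested and 0 passing, with Jun at 0.30 (adjusted p = 0.689) and Mcl1 at 0.11 (adjusted p = 0.609). Of 13 liver genes downstream of FGF15 and FGF21, 0 passed. Their median log2 difference was -0.12, with 3 of 13 above 0, beside -0.02 over all genes tested. Cyp7a1, the rate-limiting enzyme of bile acid synthesis that FGFR4 signalling represses, differed by 0.66 (adjusted p = 0.388) and rose with the block (adjusted p = 0.0166), in 6 of 6 mice. Ppargc1a fell with the block alone (-0.39, adjusted p = 0.0122), and the abundant Pck1 differed by -0.30 (adjusted p = 0.334). In KO against WT, Ptprk was the only gene of all these lists to pass in either fraction.

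Genes with profiles most like each receptor were found as the mean absolute difference of profiles scaled to unit SD over the 12 libraries, among 10516 genes whose mean reached 100 reads per 20 M. For Fgfr2 they were Pkp4 (0.245), Cdv3 (0.269) and Gm28035 (0.278), where the median gene was at 0.979. For Fgfr4 they were Cdk18 (0.263), Etnppl (0.281) and Clic5 (0.304), and for Erbb2 Atp2b4 (0.193), Pea15a (0.239) and Itpkb (0.247). Erbb3 was nearest to Nr0b2, Abhd18 and Zbtb44 (0.177, 0.177 and 0.179), and Egfr to Arhgap32, Rab11fip2 and Nrep (0.338, 0.342 and 0.375). Nearest to Met were Nudt19, Gclm and Acy1 (0.224, 0.268 and 0.276), to Fgfr1 Irf5, Nudt12os and Ipo9 (0.299, 0.341 and 0.367), and to Klb Acss3, Ppfia2 and Ces1c (0.207, 0.218 and 0.229). Fgfr3 was nearest to G630022F23Rik (0.199), then Arap1 (0.217) and Hnrnpr (0.301). All 12 libraries share their mice in pairs, so these are descriptions of 6 mice.

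G630022F23Rik shares 998 exon bases with Fgfr3 on the opposite strand of chromosome 5 in GENCODE M21, and whether counting used strand is not stated, so reads of the pair cannot be told apart. Fgfr1, on chromosome 8, shares 164 exon bases with the antisense gene Gm16159, Erbb2, on chromosome 11, shares 9 with Mien1 on the opposite strand, and Fgfr2, whose annotated span on chromosome 7 holds 69 other genes, shares 314 with Ctbp2 on the same strand. Egfr, Erbb3, Met, Fgfr4 and Klb (chromosomes 11, 10, 6, 13 and 5) share 0 exon bases with another gene of that annotation.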

How the data were processed

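PolyA RNA sequencing libraries of hepatocyte fractions were matched to groups by genotype and fat content, per the labels. Deposited values are a score: gene read counts that the authors scaled to 20 M per library and rounded up to whole numbers, as read from the values and column names. The build is mm9 per the submitters' processing notes. Aligner, counter, strand setting and filters are not given in the sources used here. Depth was estimated from gaps and raised frequencies among low values.

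The 9 genes, the gene lists and the rule for named genes were chosen with earlier results of these data known. Named are the 9 genes and Ptprk, in each pathway list every gene passing a fraction or interaction test with or without the block and the 2 most abundant, the 3 nearest profiles per gene, and markers needed beside a result. One gene under this rule is not reported here. Because values were scaled, no count model was used. Values were rescaled by a trimmed mean of M values over tested genes and transformed as log2(value + 2). limma 3.58.1 in R 4.3.3 fitted 4 group means over all 12 libraries with a variance trend, checked on simulated data. P-values are two-sided and Benjamini-Hochberg adjusted over 16563 genes, called under 0.05. Replicates are separate mice.

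The labels give both fractions of a replicate the same mouse name, and deviations of paired libraries correlated at 0.469 to 0.582 in WT and -0.009 to 0.46 in KO. A fit with the mouse as block was an alternative for fractions and the interaction. For KO against WT the block is the replicate number, which joins different mice. Such libraries correlated at 0.251 to 0.396 in low-fat and -0.171 to 0.49 in high-fat libraries. Other pseudocounts, scalings, filters and left-out libraries were also tried. GENCODE M21 (GRCm38) matched 52403 of 52636 identifiers and gave exon lengths and overlaps only. Promoter windows are from RefSeq.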

Additional observations from a re-analysis of the deposited data

Results flagged for a closer look

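Fgf2, an FGF receptor ligand at 94.17 reads per 20 M, had less transcript in the high-fat fraction in all 3 WT mice and more in all 3 KO mice, which drew attention to it among 121 named genes examined. Over all 16563 genes tested, 106 (0.64%) had fraction differences of opposite sign in every mouse of the 2 genotypes. The interaction for Fgf2 was 0.254 on the log2 scale (SE 0.216) with an adjusted p of 1, so the difference between genotypes did not pass.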

How the results depend on the processing

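Fgfr2 and Fgfr4 passed over both genotypes under 21 of 22 alternatives and Erbb2 under 20. The exceptions leave out the 4 libraries of mouse 1 in each genotype, an alternative chosen after seeing the data: without the block 0 of the 9 genes and 357 genes in all passed over both genotypes, and 0 genes in KO against WT (low-fat or high-fat) or in KO fractions. The part in this of the smaller number of libraries and of the marker levels in those left out was not tested. In what follows, the replicate block stands for the mouse in fraction and interaction fits and for the replicate number in KO against WT. Without those 4 libraries and with the replicate block, 1 of the 9 (Fgfr2) and 406 genes passed in WT. In KO fractions 2 of the 9 (Fgfr1 and Fgfr2) and 396 genes passed, and in KO against WT 2 genes in each fraction. The replicate block alone gave 282 genes and 2 of the 9 in KO and 1819 genes over both genotypes, and changed no other count of the 9 genes except 4 in place of 3 over both genotypes. With the trimmed mean taken over all genes and the replicate block, also added later, 181 genes and 1 of the 9 (Fgfr2) passed in WT, 382 and 2 in KO, 1796 and 5 over both genotypes (Fgfr3 at an adjusted p of 0.0423 and Fgfr1 beside the 3), and 2 genes in KO against WT, high-fat. A pseudocount of 10 gave 1 gene in WT fractions. Fits on only the libraries compared gave 0 genes for KO against WT in high-fat libraries and for fractions in KO.

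Leaving out 1 library gave 0 to 1 genes for KO against WT in high-fat (0 without WT high-fat 3 or KO high-fat 2) and 1 in low-fat libraries, 0 to 301 for fractions in KO (301 without WT high-fat 1, where Fgfr2 passed, and 0 without WT high-fat 2, KO low-fat 1 or any KO high-fat library), 0 to 130 in WT (130 without KO low-fat 1), and 604 to 1103 over both genotypes with 3 to 4 of the 9 genes (Fgfr1 also without WT low-fat 2 or KO low-fat 2).

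Signs turned only for differences that had not passed. Erbb3 became 0.031 over both genotypes, 0.043 in WT and 0.019 in KO with the deposited scaling, and 0.016 in WT without mouse 1, with or without the replicate block. The Erbb3 interaction became 0.014 without the filter and with the trimmed mean over all genes, with or without the replicate block, and that of Fgfr2 0.022 without mouse 1, with or without it. Leaving out 1 library gave ranges across 0 for Egfr in WT (-0.447 to 0.14), Erbb3 in WT (-0.227 to 0.232), KO (-0.122 to 0.057) and both genotypes (-0.132 to 0.098), Fgfr3 in WT (-0.454 to 0.116), Klb in WT (-0.427 to 0.192) and KO (-0.392 to 0.055), and the interactions of Egfr (-0.429 to 0.157), Erbb3 (-0.268 to 0.191), Met (-0.003 to 0.195), Fgfr2 (-0.212 to 0.092), Fgfr3 (-0.405 to 0.165), Fgfr4 (-0.004 to 0.147) and Klb (-0.405 to 0.213). For KO against WT, ranges across 0 were those of Fgfr1 (-0.326 to 0.108) and Fgfr3 (-0.445 to 0.097) in low-fat libraries. In high-fat libraries they were those of Fgfr4 (-0.068 to 0.078) and Klb (-0.092 to 0.491).

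Among the 9 genes, depth limits Erbb2 most, whose low-fat values of 5 to 12 reads per 20 M lie near the floor of 3 reads.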
